A study of Micropterus salmoides with 45 samples.

Results

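Moderate hypoxia for 4 h was compared with normal oxygen for 4 h in the liver of largemouth bass (Micropterus salmoides), a predatory freshwater fish, by small-RNA sequencing. The 2 groups were MHG_4h, with dissolved oxygen held at 3.0 ± 0.2 mg/L, and CG_4h, with dissolved oxygen held at 7.0 ± 0.2 mg/L. They were taken by their labels, 3 libraries each, so 6 of the 45 libraries of the series. All fish were 6 months old, were kept at 20 °C with 30 fish to a tank, were fasted, and were anaesthetised with MS-222 before the liver was taken. Oxygen in the hypoxic tanks was lowered with nitrogen within 2 h, and the end of that step is 0 h. Each oxygen level had 3 tanks, 9 in all, but the labels tie no library to a tank or a fish and do not make clear whether livers were pooled. The p-values below therefore reflect variation between libraries alone, and tank cannot be told apart from oxygen level. The values were taken as rpm, which are read numbers scaled to a common library size, for 266 named miRNAs, of which 139 are 5p arms and 127 are 3p arms of their precursors.

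A miRNA is a short RNA cut as a duplex from a hairpin precursor. The strand that is kept binds Argonaute and lowers the translation and stability of messenger RNAs that pair with its seed near the 5′ end, and the 5p and 3p arms of a hairpin have different seeds. In vertebrate cells at low oxygen, hypoxia-inducible factors activate the miR-210 gene in particular. In zebrafish, the fish-specific miR-462 and miR-731 cluster is also known to respond to hypoxia. Hepatocytes are rich in miR-122 and, with other epithelia of the gut, in miR-192 and miR-194. The names used here are those in the files, without the species prefix.

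Many of the deposited values were not separate measurements. In MHG_4h, 198 of the 239 miRNAs above 0 (82.8%) had a library whose value equalled the mean of the other 2, and 34 had the same value in all 3 libraries. In CG_4h these were 194 of 241 miRNAs (80.5%) and 20 miRNAs. Such values were treated as not measured, so a comparison usually rests on 2 values against 2. MHG_4h libraries 1, 2 and 3 kept 215, 96 and 140 measured miRNAs, and CG_4h libraries kept 142 to 192. The spacing of low values implied a depth of 1.67 to 2.51 mega-reads in MHG_4h and 2.40 to 3.36 mega-reads in CG_4h. These depths are inferred from the values, and no read totals were used. The median range of a miRNA over the measured libraries of its group was 0.53 log2 in MHG_4h (145 miRNAs of at least 10 rpm) and 0.22 log2 in CG_4h (152 miRNAs).

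The libraries also differed in the sum of the deposited values over the listed miRNAs. The listed miRNAs summed to 469730, 433628 and 519855 rpm in MHG_4h libraries 1, 2 and 3, against 739872, 756429 and 763808 rpm in CG_4h libraries 1, 2 and 3. The MHG_4h mean of 474405 ± 43303 rpm was 63.0% of the CG_4h mean of 753370 ± 12258 rpm (SD, n = 3 each). The ranges did not overlap, and an exact two-sided permutation test gave p = 0.10, the smallest that 3 against 3 libraries allow. These sums include the averaged and repeated values, and only 96 of the 238 miRNAs above 0 in MHG_4h library 2 were measured there. The 3 totals of a group are therefore not independent, and the SD, the ranges and the p-value treat them as if they were. Without the 5 most abundant miRNAs the MHG_4h sum was still 64.2% of the CG_4h sum. No source used here names the denominator of rpm, and its part in the smaller totals was not tested. A difference, rise or fall named with no scale below is in rpm as deposited, and one in share of the listed total is named as a share.

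**Figure D1:**
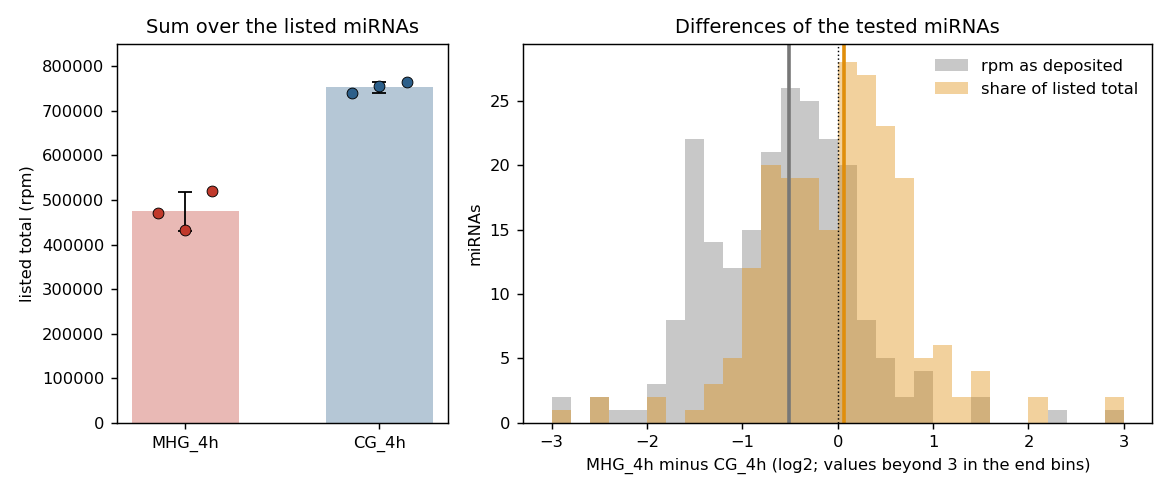
Left, the sum of the listed miRNAs per library in rpm (points), with the mean (bar) and SD (error bar) of the 3 libraries of MHG_4h and of CG_4h. Right, histograms of the log2 difference MHG_4h minus CG_4h over the 216 tested miRNAs as deposited (grey) and as a share of the listed total (orange), where vertical lines mark the medians of -0.51 and 0.07.

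Of the 228 miRNAs that averaged 1 rpm or more across the 45 libraries, 216 had measured values in both groups and were tested with limma's moderated model, in which a miRNA is called at an adjusted p under 0.05. As deposited, 79 miRNAs were called (36.6%), 3 of them higher (1.39%) and 76 lower (35.2%) in MHG_4h, and the median difference was -0.51 log2. As a share of the listed total, 37 were called (17.1%), 20 higher (9.26%) and 17 lower (7.87%), and the median was 0.07. The measured values of the 2 groups did not overlap for 147 of the 216 miRNAs (68.1%) as deposited and for 122 (56.5%) as shares. Exactly 20 miRNAs were called in the same direction on both scales, 17 lower and 3 higher. The same 20 were among the 43 called when libraries were scaled by their median ratio. Rescaling moves all miRNAs of a library together (log2 ratio of the mean totals -0.67), so a call on several scales is no separate evidence. The other 59 calls as deposited were all lower, and the other 17 calls on shares were all higher. Fitted on the 6 libraries alone, the model called 20 miRNAs as deposited and 2 as shares. The fit on all 45 libraries pools the spread of all groups, while the median range was 0.53 log2 in MHG_4h and 0.22 log2 in CG_4h. The cause of the lower counts was not tested. Without MHG_4h library 2, 48 were called as deposited and 23 as shares. Without MHG_4h library 1, 76 were called on shares, and without CG_4h library 1, 10.

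Among the 20 miRNAs called on both scales, those lower in MHG_4h came from several tissue classes. They were the liver and gut miRNA miR-192-5p, miR-148-3p and miR-101a-3p, which are plentiful in liver, the pancreas miRNAs miR-216b-5p and miR-7a-5p, and the epithelial miRNAs miR-200b-3p and miR-429a-3p. The lymphocyte miRNA miR-150-5p, the neuronal miR-153b-3p, the stromal miR-214-3p, let-7d-5p, let-7f-3p, miR-100-5p, miR-125a-3p, miR-19d-5p, miR-181a-3p and miR-2184-5p make up the 17. The 3 that were higher were miR-10d-5p, miR-219-5p and miR-126b-3p. When 1 of the 6 libraries was left out in turn, miR-200b-3p and miR-126b-3p were called on both scales each time. For miR-200b-3p, MHG_4h library 3 and CG_4h library 2 hold averages, so leaving out either removed no measured value of it. For miR-126b-3p, the MHG_4h value is 1 measurement repeated, so leaving out an MHG_4h library could not change it. Without CG_4h library 1 only 6 of the 20 were called on both scales, and without MHG_4h library 2 only 9. MHG_4h library 2 had the lowest value in 55 of the 73 falls called as deposited that have at least 2 measured MHG_4h values.

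**Figure D2:**
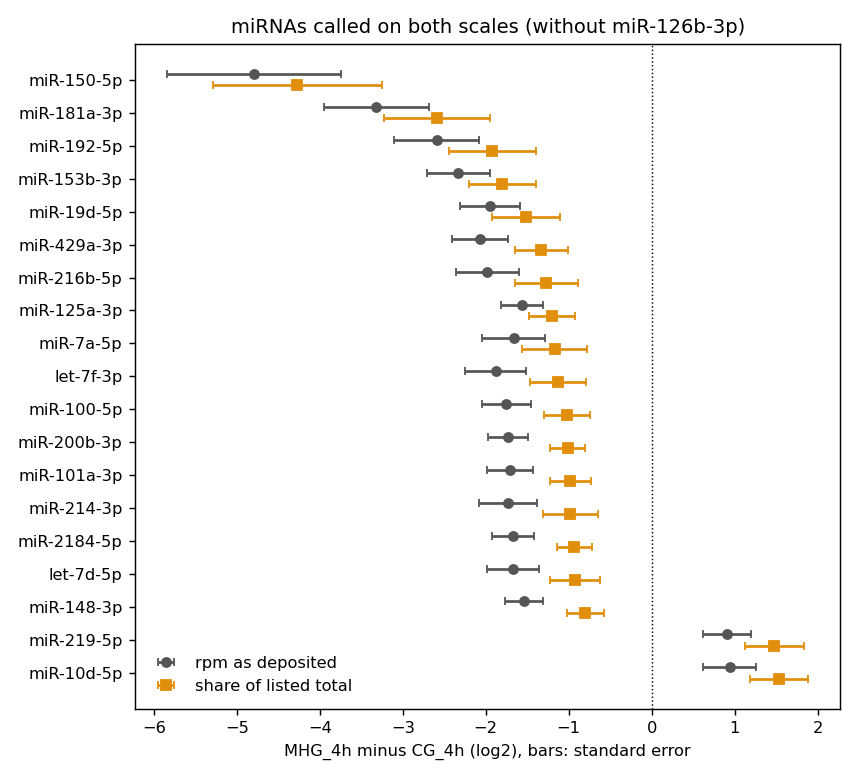
The log2 difference MHG_4h minus CG_4h with its standard error for 19 of the 20 miRNAs called on both scales, as deposited (grey circles) and as a share of the listed total (orange squares). Shares lie to the right of the deposited values for every miRNA shown, and miR-126b-3p (10.17 as deposited) is left off the axis.

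The oxygen-response miRNAs were lower, not higher, after 4 h of moderate hypoxia in rpm. miR-210-3p, the main hypoxia-induced miRNA of vertebrates, had 171, 75.2 and 123 rpm in MHG_4h libraries 1, 2 and 3, against 433, 245 and 339 rpm in CG_4h libraries 1, 2 and 3. Library 3 of each group is an average of the other 2, and all MHG_4h values lay under all CG_4h values. The fall was -1.51 ± 0.34 log2 (± SE, adjusted p = 0.00175). As a share of the listed total the difference was -0.79 ± 0.32 (adjusted p = 0.0839), and without MHG_4h library 2 it was -0.92 as deposited (adjusted p = 0.0618), so the call was lost there. The call was also lost in fits on the 6 libraries alone (adjusted p = 0.0638) and on the 9 libraries of 4 h (adjusted p = 0.0549). Scaled by median ratio, the difference was -0.91 (adjusted p = 0.0513).

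The other arm of the same hairpin followed. miR-210-5p had 92.8, 68.2 and 80.5 rpm in MHG_4h, against 216, 232 and 199 rpm in CG_4h, with no overlap. It fell by 1.42 ± 0.35 log2 (adjusted p = 0.00336), and its share differed by -0.68 ± 0.32 (adjusted p = 0.153). miR-462-5p, of the fish hypoxia cluster, had 1750, 1211 and 2290 rpm in MHG_4h, against 4720, 5129 and 4925 rpm in CG_4h. It fell by 1.56 ± 0.35 log2 (adjusted p = 0.0017), and its share differed by -0.91 ± 0.32 (adjusted p = 0.0606). Its cluster partner miR-731-5p was listed at 0 in all 6 libraries. The 3 tested members of the fish hypoxia list were all called lower as deposited and none as a share, beside 35.2% and 7.87% of all tested miRNAs.

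The wider list of miRNAs tied to hypoxia in mammalian cells showed no common direction as shares, with 17 members above 0 and 8 below 0. As deposited its calls were all lower. Of its 26 tested members, 6 were called lower and none higher as deposited, beside 35.2% lower among all tested miRNAs. As shares 1 was lower and 3 higher, beside 7.87% and 9.26%. The list medians were -0.46 as deposited and 0.14 in share, beside -0.51 and 0.07 over all tested miRNAs. The called ones as deposited were miR-21-3p, miR-26b-5p, miR-27c-3p, miR-27e-3p, miR-107b-3p and miR-181a-3p. miR-26b-5p had 11530, 3997 and 7764 rpm in MHG_4h, against 18796, 19067 and 18524 rpm in CG_4h, a difference of -1.47 ± 0.31 log2 (adjusted p = 0.00129). Its share differed by -0.72 (adjusted p = 0.0783). miR-107b-3p, of a family that sits in pantothenate kinase genes and acts in lipid and glucose metabolism, had 23.3, 6.40 and 14.9 rpm in MHG_4h, against 44.9, 40.1 and 42.5 rpm in CG_4h. It fell by 1.69 ± 0.38 log2 (adjusted p = 0.00188), but its share was not called (-1.03, adjusted p = 0.0623) and its difference was -0.84 without MHG_4h library 2 (adjusted p = 0.0762). Without that library the differences of miR-27c-3p, miR-27e-3p and miR-21-3p, all of them called with it, were -0.50 (adjusted p = 0.14), -0.72 (adjusted p = 0.113) and -0.93 (adjusted p = 0.167). miR-21-3p was also not called without CG_4h library 1 (-1.03, adjusted p = 0.149). The shares of miR-27c-3p, miR-27e-3p and miR-21-3p were at -0.66, -0.80 and -0.70, none called.

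**Figure D3:**
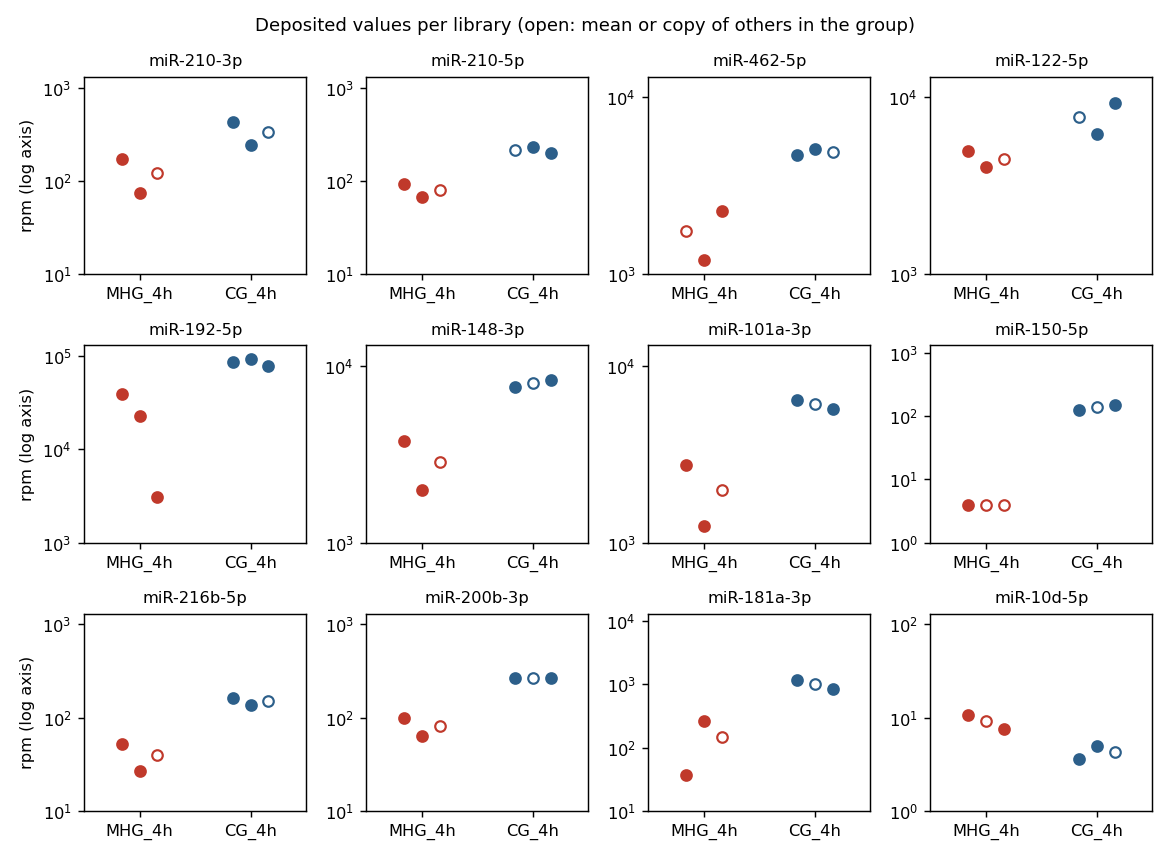
Deposited rpm on log axes for 12 miRNAs in MHG_4h libraries 1 to 3 (red) and CG_4h libraries 1 to 3 (blue), from left to right within a group. Filled points are measured values, and open points equal the mean of the other 2 libraries or a value that all 3 share. In all panels but the last (miR-10d-5p) the MHG_4h points lie below the CG_4h points.

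The hepatocyte miRNA miR-122 was present in all 6 libraries, which are labelled as liver. miR-122-5p had 4980, 4029 and 4504 rpm in MHG_4h, against 7782, 6242 and 9322 rpm in CG_4h. Its difference of -0.77 ± 0.30 log2 had an adjusted p of 0.0504, and its share was level at -0.02 (adjusted p = 0.969). The 3p arm had 60.4, 84.7 and 109 rpm in MHG_4h, against 90.6, 77.2 and 104 rpm in CG_4h, and these ranges overlapped. Its difference was -0.14 ± 0.28 as deposited and 0.47 ± 0.26 as a share, neither of them called.

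Most other liver-enriched miRNAs were called lower as deposited. Of the 22 tested members of that list, 14 were called lower and none higher as deposited, beside 35.2% lower among all tested miRNAs, and 3 lower and 2 higher as shares, with medians of -1.15 and -0.41 beside -0.51 and 0.07 over all tested miRNAs. miR-192-5p, an epithelial miRNA that p53 induces in human cells, had 39333, 22997 and 3116 rpm in MHG_4h, against 85291, 92726 and 77655 rpm in CG_4h. The value of MHG_4h library 3 stands far below the others and is about 10% of 31165 rpm, the mean of libraries 1 and 2. With it, the difference was -2.59 ± 0.51 log2 (adjusted p = 0.00054) and -1.92 ± 0.52 log2 as a share (adjusted p = 0.0171). Without it the differences were -1.50 as deposited and -0.76 as a share, both still called. On shares, miR-192-5p was not called without CG_4h library 1 (-1.90, adjusted p = 0.0617).

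The passenger arm and the cluster partner of miR-192 were called lower in rpm, with no call in share. miR-192-3p had 461, 137 and 299 rpm in MHG_4h, against 651, 650 and 650 rpm in CG_4h, a difference of -1.37 ± 0.35 log2 (adjusted p = 0.00421) that was -0.50 without MHG_4h library 2 (adjusted p = 0.146). miR-194a-5p fell by 1.14 ± 0.29 log2 (adjusted p = 0.00399), and its difference was -0.58 without that library (adjusted p = 0.121). The share differences of these miRNAs were -0.63 and -0.39, neither called.

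miR-148-3p, which targets DNA methyltransferase and lipid-uptake transcripts in mammals, had 3745, 1987 and 2866 rpm in MHG_4h, against 7566, 7938 and 8311 rpm in CG_4h. It fell by 1.54 ± 0.23 log2 (adjusted p = 8.83e-05) and by 0.80 ± 0.22 log2 as a share (adjusted p = 0.0171). The share call was lost without MHG_4h library 2 (-0.40, adjusted p = 0.273), CG_4h library 1 (-0.85, adjusted p = 0.0618) or CG_4h library 3 (-0.76, adjusted p = 0.0901). miR-101a-3p, a repressor of EZH2 in mammals, had 2730, 1237 and 1984 rpm in MHG_4h, against 6414, 6041 and 5668 rpm in CG_4h. It fell by 1.71 ± 0.28 log2 (adjusted p = 0.000166) and by 0.98 ± 0.25 log2 as a share (adjusted p = 0.0141). Its share was not called without MHG_4h library 2 (-0.46, adjusted p = 0.21) or CG_4h library 1 (-0.87, adjusted p = 0.084). miR-101a-5p, the other arm, went the other way in share. It had 84.4, 103 and 122 rpm in MHG_4h, against 89.2, 87.2 and 91.2 rpm in CG_4h, and its share rose by 0.80 ± 0.21 log2 (adjusted p = 0.0171) with a deposited difference of 0.19 (adjusted p = 0.543). That share call was lost without MHG_4h library 3 (0.61, adjusted p = 0.11) or CG_4h library 2 (0.78, adjusted p = 0.0574).

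Of the 7 tested members of the miR-30 family, abundant in liver and kidney epithelium, 6 were called lower as deposited and none on shares. These stand beside 35.2% and 7.87% of all tested miRNAs. miR-30e-5p had 14468, 7597 and 11032 rpm in MHG_4h, against 20496, 23615 and 26438 rpm in CG_4h, and fell by 1.16 ± 0.20 log2 (adjusted p = 0.000169). Its share differed by -0.42 (adjusted p = 0.0839). miR-30e-3p fell by 1.37 ± 0.27 log2 (adjusted p = 0.000628), with its share at -0.61 (adjusted p = 0.0689). miR-30a-3p and miR-30b-5p fell by 1.42 and 1.22 log2, but without MHG_4h library 2 they were at -0.76 and -1.06 with an adjusted p of 0.0806 each, and miR-30b-5p was not called without CG_4h library 3 either (-0.77, adjusted p = 0.164). The family's median share difference was -0.42, beside 0.07 over all tested miRNAs.

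The most abundant miRNA, miR-26a-5p, was not called on either scale. It had 68324, 85477 and 102630 rpm in MHG_4h, against 91901, 96686 and 101473 rpm in CG_4h, and the ranges overlapped. That was 14.6%, 19.7% and 19.7% of the listed total in MHG_4h, against 12.4%, 12.8% and 13.3% in CG_4h, with no overlap. The difference was -0.21 ± 0.20 log2 as deposited (adjusted p = 0.432) and 0.40 ± 0.15 as a share (adjusted p = 0.0689), neither called, with opposite signs. miR-181a-5p had 50298, 54629 and 58960 rpm in MHG_4h, against 66302, 73269 and 80237 rpm in CG_4h, and its difference was -0.42 as deposited and 0.18 as a share, neither called. miR-22a-3p was at -0.67 ± 0.27 as deposited (adjusted p = 0.0531) and -0.05 as a share. Together, the 5 miRNAs most abundant on average over the 6 libraries held 43.0% to 48.5% of the listed total in MHG_4h and 44.8% to 47.1% in CG_4h.

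Within the let-7 family, which holds cells in a differentiated state, members split. Of 17 tested members, 7 were called lower as deposited, beside 35.2% of all tested miRNAs, and on shares 2 were called lower and 2 higher, beside 7.87% and 9.26%. The median share difference was 0.07, that of all tested miRNAs. let-7a-5p had 21436, 15210 and 18323 rpm in MHG_4h, against 38989, 42861 and 40818 rpm in CG_4h, a difference of -1.18 ± 0.18 log2 (adjusted p = 8.81e-05) with a share difference of -0.44 ± 0.17 (adjusted p = 0.0757). let-7f-3p had 4945, 1467 and 3206 rpm in MHG_4h, against 9933, 9654 and 10212 rpm in CG_4h. It fell by 1.88 ± 0.37 log2 (adjusted p = 0.000569) and by 1.13 ± 0.34 log2 in share (adjusted p = 0.0289). let-7d-5p had 644, 219 and 431 rpm in MHG_4h, against 1199, 1218 and 1181 rpm in CG_4h, and fell by 1.67 ± 0.31 log2 (adjusted p = 0.000508) and by 0.92 ± 0.30 log2 in share (adjusted p = 0.038).

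Both of these let-7 falls lean on MHG_4h library 2. Without it the deposited differences were -1.01 for let-7f-3p and -0.90 for let-7d-5p, and the share differences were -0.31 (adjusted p = 0.531) and -0.20 (adjusted p = 0.587). Leaving out any CG_4h library also ended the share call of either, with adjusted p-values of 0.0617 to 0.121. Members of a family with nearly the same letters, such as let-7 5p arms, could also have had reads split between names by the counting, so their values are uncertain.

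The members called higher in share were let-7a-3p and let-7i-5p. let-7a-3p had 73.5, 71.4 and 75.6 rpm in MHG_4h, against 57.8, 52.7 and 62.9 rpm in CG_4h. Its share rose by 1.02 ± 0.28 log2 (adjusted p = 0.0171), against 0.35 as deposited (adjusted p = 0.344). let-7i-5p was at 0.30 as deposited and rose by 0.90 ± 0.27 in share (adjusted p = 0.0289). Without CG_4h library 1 its deposited difference was -0.18 and its share difference 0.43 (adjusted p = 0.333), and without MHG_4h library 3 these were -0.06 and 0.61 (adjusted p = 0.212). let-7a-3p lost its share call without CG_4h library 2 (0.90, adjusted p = 0.0969) or MHG_4h library 2 (0.93, adjusted p = 0.0934).

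The miR-99, miR-100 and miR-125 families are known repressors of mTOR and growth-factor signals in mammals. They were called lower as deposited in 5 of 8 tested members and as shares in 2, with medians of -0.81 and -0.20. Over all tested miRNAs 35.2% and 7.87% were called lower, with medians of -0.51 and 0.07. miR-100-5p had 10135, 7508 and 8821 rpm in MHG_4h, against 32404, 26652 and 29528 rpm in CG_4h. It fell by 1.75 ± 0.29 log2 (adjusted p = 0.000169) and by 1.02 ± 0.28 log2 in share (adjusted p = 0.0171). At 0, 8, 12 and 24 h control averaged 14789, 14042, 10736 and 3018 rpm, all below control at 4 h. Moderate hypoxia averaged 19729, 8673, 11536 and 1877 rpm at those hours. The share call was lost without MHG_4h library 2 (-0.86, adjusted p = 0.1) or CG_4h library 1 (-0.87, adjusted p = 0.111). miR-125a-3p, a rare arm, had 1.20, 1.07 and 1.13 rpm in MHG_4h, against 5.65, 4.97 and 5.31 rpm in CG_4h, and fell by 1.56 ± 0.25 log2 (adjusted p = 0.000178). Its share fell by 1.20 ± 0.28 log2 (adjusted p = 0.0131), and without CG_4h library 1 it was at -1.11 (adjusted p = 0.0618). miR-125b-5p fell in rpm by 0.81 ± 0.19 log2 (adjusted p = 0.00251), while its share was at -0.19. miR-100-3p fell by 0.96 ± 0.28 log2 (adjusted p = 0.0117) with its share at -0.25 (adjusted p = 0.495), and it was not called without MHG_4h library 2 (-0.52, adjusted p = 0.198) or CG_4h library 1 (-0.88, adjusted p = 0.0671).

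In the Hox clusters, whose miR-10 and miR-196 genes lie among the genes that pattern the body axis, more members were higher. As shares, 4 of 6 tested members were called higher and none lower, beside 9.26% of all tested miRNAs, and the median was 1.14. As deposited, 1 was called higher and 1 lower, beside 1.39% and 35.2% of all tested miRNAs, with a median of 0.54. miR-10d-5p had 10.8, 9.16 and 7.56 rpm in MHG_4h, against 3.57, 4.97 and 4.27 rpm in CG_4h, with no overlap. It rose by 0.94 ± 0.32 log2 (adjusted p = 0.0237) and by 1.54 ± 0.35 log2 in share (adjusted p = 0.0101). Its deposited call was lost without MHG_4h library 1 (0.71, adjusted p = 0.177) or CG_4h library 1 (0.75, adjusted p = 0.155), and its share call without CG_4h library 1 (1.35, adjusted p = 0.0618).

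miR-10c-5p, the abundant member, had 6999, 6534 and 6069 rpm in MHG_4h, against 5131, 5557 and 5983 rpm in CG_4h. These ranges did not overlap, and its share rose by 0.84 ± 0.16 log2 (adjusted p = 0.00343), while the deposited difference was 0.23 (adjusted p = 0.234). miR-10a-5p had 204, 269 and 333 rpm in MHG_4h, against 45.2, 178 and 111 rpm in CG_4h, and its share rose by 2.13 ± 0.67 log2 (adjusted p = 0.0359). That share difference was 1.16 without CG_4h library 1 (adjusted p = 0.318) and 1.85 without MHG_4h library 3 (adjusted p = 0.149). miR-10b-5p went the other way as deposited, with 760, 654 and 867 rpm in MHG_4h, against 1195, 1145 and 1170 rpm in CG_4h. It fell by 0.64 ± 0.23 log2 (adjusted p = 0.0345), but its share was at 0.02, and the deposited call was lost without MHG_4h library 2 (-0.43, adjusted p = 0.224) or CG_4h library 1 or 2 (-0.60 and -0.67, adjusted p = 0.121 and 0.0773). Also below 0 was miR-196b-5p, at -0.71 as deposited and -0.42 in share, neither called. The other arm of miR-10c, miR-10c-3p, was at 0 in MHG_4h and above 0 in CG_4h, so it gave no fold.

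miR-126 is the miRNA of endothelial cells, encoded in an intron of EGFL7. Its names gave opposite directions here. miR-126a-3p had 8421, 2779 and 5600 rpm in MHG_4h, against 10569, 11362 and 12154 rpm in CG_4h, and fell by 1.23 ± 0.34 log2 (adjusted p = 0.0093). The difference was -0.43 without MHG_4h library 2 (adjusted p = 0.14) and -1.13 without CG_4h library 3 (adjusted p = 0.0531). miR-126a-5p and miR-126b-5p, whose values run close together, both fell by 1.33 log2 (adjusted p = 0.0093 and 0.00736). Both were at -1.07 without MHG_4h library 2 (adjusted p = 0.0897 and 0.0787), and at -1.08 without CG_4h library 3 (adjusted p = 0.0834 and 0.0704). The share differences of these 3 miRNAs were between -0.49 and -0.58, none called.

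miR-126b-3p had the largest difference of the 216 tested miRNAs. It was listed at 13956 rpm in all 3 MHG_4h libraries, which is 1 measured value, against 7.14, 20.6 and 9.16 rpm in CG_4h. The difference was 10.17 ± 1.03 log2 (adjusted p = 1.5e-06) and 10.88 ± 1.25 log2 in share (adjusted p = 1.35e-05), and the spread of MHG_4h was taken from other groups. The miR-126a and miR-126b names belong to close paralogs whose reads the counting could split, so these values are uncertain. The same name switched between high and low values in other groups too. It averaged 10079 rpm in severe hypoxia at 4 h, and at 0 h it averaged 12121 rpm in moderate hypoxia, against 9956 rpm in control. At 8 h it averaged 12.99 rpm in moderate hypoxia, against 17892 rpm in control, and at 12 h the order was turned round, with 12288 rpm in moderate hypoxia, against 65.3 rpm in control. The moderate-minus-control difference was thus 0.32 at 0 h, -11.17 at 8 h, 7.53 at 12 h and 9.22 at 24 h, so a large difference was not particular to 4 h. Of the 17 tested members of the angiogenesis and endothelium list, 5 were called lower and 1 higher as deposited, and only this rise was called on shares. Over all tested miRNAs 35.2% were called lower and 1.39% higher as deposited, and 7.87% and 9.26% as shares.

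Markers of other cell types were called lower in differing numbers, to be read beside the 35.2% of all tested miRNAs called lower as deposited and the 7.87% called lower in share. Members called higher are to be read beside 1.39% as deposited and 9.26% in share. In a bulk tissue, fewer cells of a type and less RNA per cell cannot be told apart. The summed pancreas markers held 0.0238% to 0.0439% of the listed total in MHG_4h and 0.0469% to 0.0499% in CG_4h, with no overlap. The sums of this and the other marker lists include averaged and repeated values, so their ranges are not those of separate measurements. Of 6 tested pancreas members, 4 were called lower as deposited and 2 as shares, with medians of -1.48 and -0.84. miR-216b-5p, an acinar miRNA, had 52.1, 26.7 and 39.4 rpm in MHG_4h, against 164, 138 and 151 rpm in CG_4h. It fell by 1.98 ± 0.38 log2 (adjusted p = 0.00054) and by 1.27 ± 0.38 log2 in share (adjusted p = 0.0289).

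The share call of miR-216b-5p was lost without MHG_4h library 2 (-0.85, adjusted p = 0.273), CG_4h library 1 (-1.13, adjusted p = 0.149) or CG_4h library 2 (-1.41, adjusted p = 0.0605). miR-7a-5p, of pancreatic islets and neurons, had 3.59, 5.97 and 8.35 rpm in MHG_4h, against 19.9, 19.7 and 19.6 rpm in CG_4h. It fell by 1.66 ± 0.38 log2 (adjusted p = 0.0025) and by 1.17 ± 0.39 log2 in share (adjusted p = 0.0468), and only the fit without MHG_4h library 3 kept both calls when a library was left out (adjusted p for the share of 0.0574 to 0.267 in the other 5). The genomic partners of miR-216b, miR-216a-5p and miR-217-5p, fell by 1.54 and 1.41 log2 as deposited (adjusted p = 0.0101 and 0.0204), while their shares were at -0.99 and -0.69, neither called. Without MHG_4h library 2 they were at -1.38 (adjusted p = 0.0785) and -0.65 (adjusted p = 0.359), and miR-216a-5p was at -1.50 without CG_4h library 1 (adjusted p = 0.052). miR-375-3p, the islet miRNA, had 7.16, 1.60 and 12.7 rpm in MHG_4h and was at 0 in CG_4h, so it gave no fold. It is named as a defining islet marker. The other 2 tested members, miR-7a-3p and miR-375-5p, were at 2.27 and 1.44 as deposited, each with 1 measured MHG_4h value and neither called.

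Epithelial markers held 0.151% to 0.287% of the listed total in MHG_4h and 0.311% to 0.357% in CG_4h. Of 14 tested members, 5 were called lower as deposited, a fraction close to the 35.2% of all tested miRNAs, and as shares 2 were lower and 1 higher, with miR-183-3p, miR-203b-3p and miR-205-3p at 0 in both groups. The list medians were -0.57 as deposited and -0.04 in share, with 7 members above 0 and 7 below 0 in share. The member higher in share was miR-203b-5p (1.12), and miR-141-5p and miR-429b-3p were at 1.12 and 1.38 in share, neither called. miR-200b-3p, which holds cells epithelial by repressing ZEB factors, had 99.3, 64.0 and 81.7 rpm in MHG_4h, against 266, 267 and 268 rpm in CG_4h. It fell by 1.73 ± 0.24 log2 (adjusted p = 5.89e-05) and by 1.01 ± 0.21 log2 in share (adjusted p = 0.0082), and every fit with 1 library left out called it on both scales. Leaving out MHG_4h library 3 or CG_4h library 2 removed only an average of it. Its share was not called in the fit on the 6 libraries alone. miR-429a-3p, of the same family, had 156, 48.0 and 102 rpm in MHG_4h, against 368, 397 and 340 rpm in CG_4h, and fell by 2.07 ± 0.34 log2 (adjusted p = 0.000166) and 1.33 ± 0.32 log2 in share (adjusted p = 0.0138). The share of miR-429a-3p was at -0.54 without MHG_4h library 2 (adjusted p = 0.188) and at -1.21 without CG_4h library 2 (adjusted p = 0.0574). miR-200a-3p fell by 1.38 ± 0.33 log2 as deposited (adjusted p = 0.00267), with a share of -0.65 (adjusted p = 0.128), but was at -0.73 without MHG_4h library 2 (adjusted p = 0.0914). miR-141-3p fell by 1.30 ± 0.41 log2 (adjusted p = 0.0148), with a share of -0.58 (adjusted p = 0.271), but was at -0.96 without that library (adjusted p = 0.144) and -0.76 without CG_4h library 1 (adjusted p = 0.215).

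Leukocyte markers held 0.310% to 0.501% of the listed total in MHG_4h and 0.526% to 0.609% in CG_4h. Of 6 tested members, 3 were called lower as deposited and 1 as a share. The list medians were -0.70 as deposited and -0.14 in share, with 3 members above 0 and 3 below 0 in share. The members miR-142a-3p and miR-142b-3p, which have identical values and are 1 measurement, were at -0.23 as deposited and 0.39 in share, not called. miR-150-5p, of mature lymphocytes, was listed at 3.98 rpm in all 3 MHG_4h libraries, which is 1 measured value, against 124, 137 and 151 rpm in CG_4h. It fell by 4.79 ± 1.05 log2 (adjusted p = 0.00314) and by 4.27 ± 1.02 log2 in share (adjusted p = 0.0171), and the share call was lost without CG_4h library 1 (-4.39, adjusted p = 0.0617). In severe hypoxia at 4 h it averaged 5.27 rpm. At 0, 8 and 12 h it averaged 52.92, 30.52 and 15.78 rpm in moderate hypoxia, against 15.49, 61.25 and 37.81 rpm in control. miR-142a-5p, of all blood cells, had 2007, 1010 and 1508 rpm in MHG_4h, against 3997, 3460 and 3729 rpm in CG_4h, a difference of -1.38 ± 0.35 log2 (adjusted p = 0.00399) with a share difference of -0.66 (adjusted p = 0.158). It was at -0.89 without MHG_4h library 2 (adjusted p = 0.0935). miR-155-5p, which rises when immune cells are activated, had 8.38, 8.55 and 8.72 rpm in MHG_4h, against 7.43, 7.29 and 7.36 rpm in CG_4h, and was not called on either scale (0.19 and 0.76).

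Red-cell miR-144, both arms of which were tested, was not called. miR-144-3p had 1429, 1512 and 1594 rpm in MHG_4h, against 1790, 2293 and 1288 rpm in CG_4h, and its difference was -0.19 ± 0.42 as deposited and 0.43 ± 0.42 as a share. miR-144-5p was at -0.96 ± 0.44 (adjusted p = 0.0916) and -0.29. The CG_4h libraries spread widely here, and the summed erythrocyte markers held 0.435% to 0.472% of the listed total in MHG_4h and 0.260% to 0.571% in CG_4h. The stromal markers, which held 3.40% to 7.62% in MHG_4h and 5.18% to 6.07% in CG_4h, were called lower as deposited in 4 of 8 members and higher in none. As shares 1 stromal member was called lower and 1 higher, and these were the arms of the same hairpin, miR-214.

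miR-214-3p, a fibroblast miRNA, had 194, 60.2 and 127 rpm in MHG_4h, against 362, 354 and 369 rpm in CG_4h. It fell by 1.73 ± 0.35 log2 (adjusted p = 0.000757) and by 0.98 ± 0.33 log2 in share (adjusted p = 0.0438). Without MHG_4h library 2 these were -0.89 and -0.20 (adjusted p for the share = 0.648), and leaving out any CG_4h library ended the share call (adjusted p = 0.0652 to 0.133). miR-143-3p and miR-145-3p, of smooth muscle, fell by 1.23 ± 0.36 and 1.48 ± 0.30 log2 as deposited (adjusted p = 0.00974 and 0.000847). miR-143-3p was at -0.63 without MHG_4h library 2 (adjusted p = 0.198) and -0.98 without CG_4h library 1 (adjusted p = 0.0952). Their share differences were -0.50 and -0.77, neither called.

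Neuronal markers were mixed. Of 10 tested members, miR-153b-3p was lower and miR-219-5p higher on both scales, and miR-124-3p and miR-137-5p, defining miRNAs of neurons, were at 0 in both groups. The list held 0.380% to 0.731% of the listed total in MHG_4h and 0.399% to 0.525% in CG_4h. miR-153b-3p had 5.98, 1.60 and 3.79 rpm in MHG_4h, against 20.5, 21.9 and 19.2 rpm in CG_4h. It fell by 2.33 ± 0.38 log2 (adjusted p = 0.000166) and by 1.80 ± 0.40 log2 in share (adjusted p = 0.0101), with a share of -1.02 without MHG_4h library 2 (adjusted p = 0.1). miR-219-5p, an oligodendrocyte miRNA in mammals, had 3.59, 2.39 and 1.19 rpm in MHG_4h, against 0.59, 0.66 and 0.83 rpm in CG_4h. Most low values of these libraries lie in steps of 0.297 to 0.598 rpm, so these are a few steps and likely few reads. miR-219-5p rose by 0.91 ± 0.29 log2 (adjusted p = 0.0212) and by 1.48 ± 0.36 log2 in share (adjusted p = 0.0141). It was not called without MHG_4h library 1 (0.37 and 0.78, adjusted p = 0.384 and 0.11) or CG_4h library 1 (0.86 and 1.43, adjusted p = 0.0595 and 0.0567). Muscle markers held at most 0.00605% of the listed total in MHG_4h and 0.00537% in CG_4h, with miR-499-3p at 0 and none of 3 tested members called. The part of any of these cell types in the other differences was not tested.

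**Figure D4:**
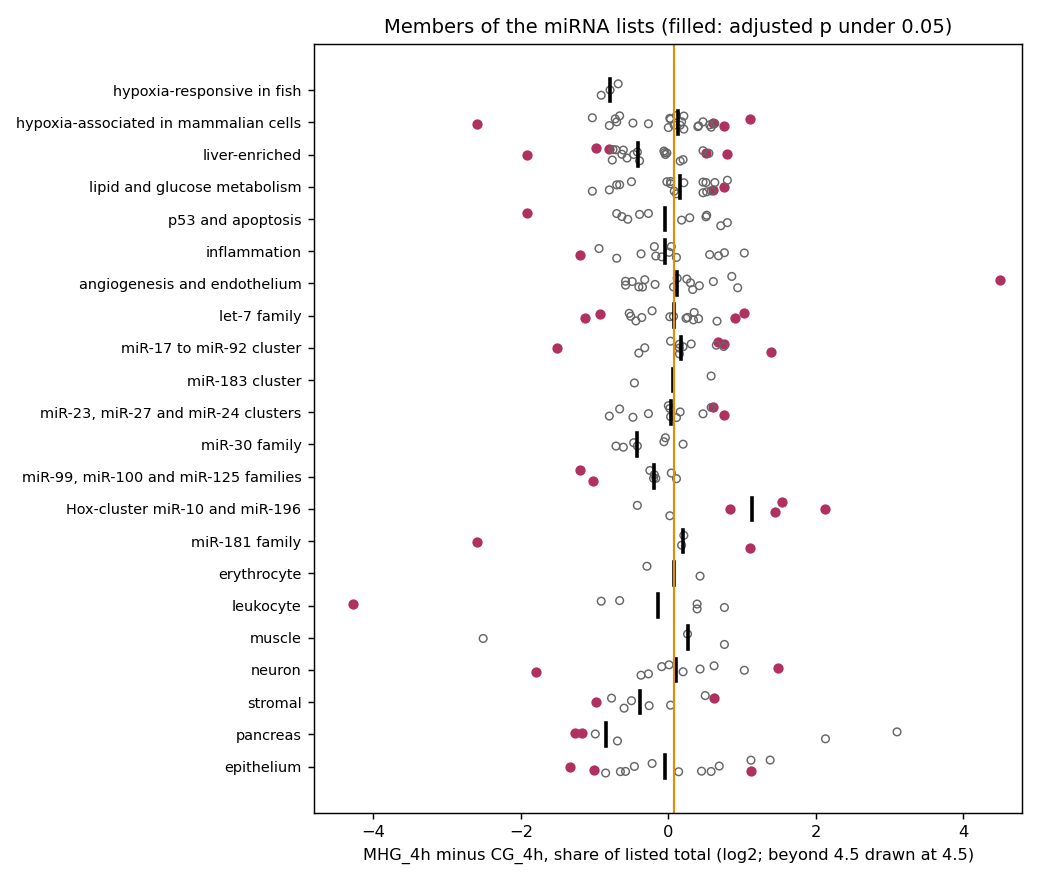
The log2 difference MHG_4h minus CG_4h in share of the listed total for the tested members of 22 miRNA lists, which overlap (points, spread vertically for view), filled where the adjusted p is under 0.05. Black bars are list medians and the orange line is the median of 0.07 over all 216 tested miRNAs. The pancreas bar is at -0.84 and the Hox-cluster bar at 1.14.

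Lists named for metabolism, cell death and inflammation held between 4 and 5 calls each as deposited, all lower, beside 35.2% lower among all tested miRNAs. The share counts of these lists and of the miR-23, miR-24 and miR-27 clusters are to be read beside 7.87% lower and 9.26% higher among all tested miRNAs. Of 20 tested lipid and glucose miRNAs, 5 were called lower as deposited, and 2 higher as shares, with a median share of 0.16. The lower ones were miR-27c-3p, miR-27e-3p, miR-29a-3p, miR-107b-3p and miR-143-3p. Among the clustered genes of miR-23, miR-24 and miR-27, 2 of 13 tested members, miR-27c-3p and miR-27e-3p, were called lower as deposited and 2 higher as shares. The higher ones were miR-27a-3p and miR-27b-3p, which restrain lipid synthesis in mammals. Their shares rose by 0.75 ± 0.18 (adjusted p = 0.0138) and 0.61 ± 0.18 log2 (adjusted p = 0.0217), while their rpm ranges overlapped with differences of 0.16 and -0.05. miR-27a-3p was at 0.45 in share without CG_4h library 1 (adjusted p = 0.154), and miR-27b-3p lost its call there (0.51, adjusted p = 0.162), without MHG_4h library 2 (0.54, adjusted p = 0.0626) and without MHG_4h library 3 (0.51, adjusted p = 0.0779). Of 12 tested p53 and apoptosis members, 5 were called lower as deposited and 1, miR-192-5p, as a share. miR-29a-3p fell by 1.42 ± 0.42 log2 as deposited (adjusted p = 0.0115), with a share of -0.70 (adjusted p = 0.23), but was at -0.41 without MHG_4h library 2 (adjusted p = 0.378) and -1.36 without CG_4h library 2 (adjusted p = 0.0508).

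Of 14 tested inflammation members, 4 were called lower as deposited and 1, miR-125a-3p, as a share, beside 35.2% and 7.87% of all tested miRNAs. miR-146a-3p, from the hairpin whose 5p arm is a feedback brake on innate signalling, fell by 1.59 ± 0.45 log2 (adjusted p = 0.0093), with a share of -0.94 (adjusted p = 0.155), but was at -0.48 without MHG_4h library 2 (adjusted p = 0.304) and at -1.38 without CG_4h library 2 (adjusted p = 0.0588). In the miR-183 cluster, 1 of 2 tested members was called lower as deposited, beside 35.2% of all tested miRNAs. It was miR-183-5p, at 2.39, 3.19 and 3.98 rpm in MHG_4h, against 6.84, 6.63 and 6.73 rpm in CG_4h. It fell by 0.91 ± 0.30 log2 (adjusted p = 0.0207), with a share of -0.46 (adjusted p = 0.34). It was at -0.64 without MHG_4h library 1 (adjusted p = 0.195) and was lost without CG_4h library 1 or 2 (adjusted p = 0.0776 and 0.0578).

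The miR-17 to miR-92 cluster, which drives growth of dividing cells, was called lower as deposited in 2 of 14 tested members. This is beside 35.2% of all tested miRNAs. As shares 3 members were higher and 1 lower, beside 9.26% and 7.87%. miR-19d-5p, a rare arm, had 2.06, 2.13 and 1.99 rpm in MHG_4h, against 11.7, 16.2 and 7.08 rpm in CG_4h. It fell by 1.95 ± 0.36 log2 (adjusted p = 0.000398) and by 1.51 ± 0.41 log2 in share (adjusted p = 0.0171). Its share was at -0.94 without CG_4h library 2 (adjusted p = 0.18) and -1.36 without MHG_4h library 3 (adjusted p = 0.0779). miR-92a-3p had 11337, 9925 and 8514 rpm in MHG_4h, against 19903, 19438 and 19935 rpm in CG_4h, a difference of -1.01 ± 0.29 log2 (adjusted p = 0.00936) and of -0.40 in share (adjusted p = 0.34). It was at -0.80 without MHG_4h library 3 (adjusted p = 0.0768). Those higher in share were miR-19a-3p, miR-19c-3p and miR-20b-5p, at 0.75, 0.67 and 1.39. As deposited they were at 0.13, 0.05 and 0.76. miR-19c-3p lost its share call in each fit with 1 library left out (adjusted p = 0.0558 to 0.196), miR-19a-3p without MHG_4h library 1 or any CG_4h library (adjusted p = 0.0502 to 0.209), and miR-20b-5p without CG_4h library 2 (1.03, adjusted p = 0.0969). miR-2184-5p had 4188, 2192 and 3190 rpm in MHG_4h, against 10199, 9240 and 9581 rpm in CG_4h. It fell by 1.67 ± 0.25 log2 (adjusted p = 7.41e-05) and by 0.93 ± 0.21 log2 in share (adjusted p = 0.0101), with a share of -0.53 without MHG_4h library 2 (adjusted p = 0.149).

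The 17 miRNAs called on shares only were chosen for mention after their values were seen. Besides those already described, they were miR-101b-5p, miR-181c-5p, miR-196a-5p, miR-203b-5p, miR-214-5p, miR-460-3p and miR-460-5p. The arms of miR-460, a miRNA of fish and birds, were both higher in share. miR-460-5p had 211, 282 and 352 rpm in MHG_4h, against 108, 151 and 195 rpm in CG_4h, with no overlap, and its share rose by 1.51 ± 0.42 log2 (adjusted p = 0.0171). miR-460-3p had 382, 477 and 572 rpm in MHG_4h, against 379, 329 and 280 rpm in CG_4h, and its share rose by 1.13 ± 0.35 log2 (adjusted p = 0.0309). As deposited they were at 0.91 (adjusted p = 0.101) and 0.52 (adjusted p = 0.237). Without CG_4h library 1 their shares were at 1.11 (adjusted p = 0.168) and 1.37 (adjusted p = 0.0617), and without MHG_4h library 3 at 1.22 (adjusted p = 0.113) and 0.91 (adjusted p = 0.16). Without CG_4h library 3 miR-460-3p was at 0.88 (adjusted p = 0.177). miR-196a-5p had 1.80, 2.89 and 3.98 rpm in MHG_4h, against 0.30, 2.32 and 1.31 rpm in CG_4h, and its share rose by 1.44 ± 0.38 log2 (adjusted p = 0.0171), but was at 0.67 without CG_4h library 1 (adjusted p = 0.24) and 1.02 without MHG_4h library 3 (adjusted p = 0.141). The shares of miR-101b-5p, miR-203b-5p and miR-214-5p rose by 0.51, 1.12 and 0.62 log2, and each lost its call in 4 or 5 of the 6 fits with 1 library left out (adjusted p = 0.0541 to 0.248). miR-181c-5p lost its call without CG_4h library 1 (0.92, adjusted p = 0.0952).

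A ratio of the 5p to the 3p arm within a library does not depend on the scaling between libraries. The tested log2 ratio had 1 rpm added to each arm, so for arms of few rpm it does depend on that scaling. Ratios printed per library are without the added 1 rpm. Of 65 precursors with both arms testable, 4 had a called change in that ratio (6.15%). Each of these rests on 1 MHG_4h library, and miR-7a also on 1 CG_4h library. For miR-181a, a family that tunes lymphocyte signals, the 5p arm was 1378 times the 3p arm in MHG_4h library 1, against 57.8 and 94.6 times in CG_4h libraries 1 and 3, a change of 4.18 ± 0.37 log2 (adjusted p = 8.01e-07). This came from miR-181a-3p, which had 36.5, 260 and 148 rpm in MHG_4h, against 1147, 998 and 848 rpm in CG_4h. Its lowest MHG_4h value is that of library 1, while library 2 gave no ratio because its 5p value is an average. The error of the ratio therefore holds no spread between MHG_4h libraries. A gap was already present at 0 h, with means of 69.9 rpm in moderate hypoxia and 1064 rpm in control (-3.91 log2). At 8, 12 and 24 h the difference was -1.46, 0.5 and 0.13 log2, and control averaged 114, 73.3 and 28.9 rpm. At 4 h that arm was lower by 3.32 ± 0.63 log2 (adjusted p = 0.00054), and its share difference was -2.59 ± 0.64 log2 (adjusted p = 0.0138). Without MHG_4h library 1 its differences were -1.92 and -1.13 (adjusted p for the share = 0.119), without MHG_4h library 2 they were -4.72 and -4.06, and without CG_4h library 1 the share was at -2.35 (adjusted p = 0.0746). The miR-181 family had 1 of 4 tested members called lower as deposited, miR-181a-3p, beside 35.2% of all tested miRNAs. On shares 1 was lower, the same arm, and 1 higher, miR-181c-5p (1.11, adjusted p = 0.0171), beside 7.87% and 9.26%.

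For let-7a the ratio was 213 in MHG_4h library 2, against 813 and 649 in CG_4h libraries 2 and 3, a change of -1.77 ± 0.40 log2 (adjusted p = 0.0175). For miR-7a it was 0.613 in MHG_4h library 1, against 47.4 in CG_4h library 1. With 1 rpm added to each arm the difference was -4.46 log2, smaller than these plain ratios give. It is between 1 library and 1 library and has no replicate check. Its 3p arm was listed at 5.86 rpm in all MHG_4h libraries and 0.42 rpm in all CG_4h libraries. For miR-126b it was 0.195 in MHG_4h library 1, against 233 and 742 in CG_4h libraries 2 and 3, a change of -10.95 ± 0.46 log2 (adjusted p = 1.27e-09), as the 3p arm alone was high. Across 68 precursors without miR-126b, 50 had both arms differing in the same direction as deposited, and in 8 both arms were called. As 173 of the 216 tested differences were below 0, unrelated arms would often share a direction too. The log2 differences of the 2 arms had a Pearson correlation of -0.17 over these precursors. Without MHG_4h library 1 only 35 precursors could be tested for the ratio and 1 was called.

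Some miRNAs were listed at 0 in all libraries of a group, which gives no fold. let-7b-5p was at 1338 rpm in all 3 MHG_4h libraries, which is 1 measured value, and at 0 in CG_4h. It was also at 0 in the other 13 groups of the series. miR-15a-5p was the reverse, at 0 in MHG_4h and 464 rpm in all CG_4h libraries, and miR-10c-3p was at 0 in MHG_4h and 10.8 rpm in all CG_4h libraries. miR-218a-5p had 34.8, 8.00 and 61.7 rpm in MHG_4h and was at 0 in CG_4h. In all, 19 miRNAs were at 0 in both groups, 8 in MHG_4h only and 6 in CG_4h only. Whether a 0 stands for an absent miRNA was not tested.

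Whether the differences of 4 h stood out in time was tested as the moderate-minus-control difference at 4 h against its mean over 0, 8, 12 and 24 h. As deposited, 64 of 197 miRNAs were called (32.5%), 4 higher and 60 lower at 4 h, and as shares 40 (20.3%), 17 higher and 23 lower. Without MHG_4h library 2, 31 were called as deposited. This contrast shares the 4 h libraries with the comparison above, so it is no separate evidence of the differences themselves. A broad fall in rpm was not particular to 4 h. At 8 h, the moderate-minus-control difference was called for 73 of 215 miRNAs as deposited, 72 of them lower. Its median was -0.56 log2, against -0.51 at 4 h. Lower calls numbered 4 at 0 h, 2 at 12 h and 23 at 24 h, with medians of 0.31, 0.19 and -0.04. Listed totals at 8 h were 403891 to 471494 rpm in moderate hypoxia, against 760957 to 848065 rpm in control. For 4 h against the other hours, the largest called differences below 0 were those of miR-153b-3p, miR-429a-3p, miR-192-5p, miR-146a-3p and miR-216b-5p. For miR-192-5p this rests on the low value of MHG_4h library 3: with it, 4 h differed by -2.29 log2 from the rest, and without it by -1.20 (adjusted p = 0.00353) and by -0.58 in share (adjusted p = 0.0782). For miR-153b-3p the moderate-minus-control difference was 0.55 at 0 h, -2.33 at 4 h, -0.02 at 8 h, 0.76 at 12 h and 0.48 at 24 h, so 4 h differed by -2.77 ± 0.42 log2 from the rest (adjusted p = 0.000116). For miR-429a-3p it was 1.0, -2.07, -0.23, 0.64 and -0.30 in the same order of hours, and 4 h differed by -2.35 ± 0.38 log2 (adjusted p = 0.000199).

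For miR-210-3p the moderate-minus-control difference was 0.75 at 0 h, -1.51 at 4 h, -1.0 at 8 h, 0.86 at 12 h and 0.48 at 24 h. Against the other hours, 4 h was lower by -1.78 ± 0.38 log2 (adjusted p = 0.00162) and by -1.18 in share (adjusted p = 0.028). That share call was lost without MHG_4h library 2 (-0.64, adjusted p = 0.281) or CG_4h library 1 (-0.75, adjusted p = 0.235). miR-210-5p gave -0.68, -1.42, -1.45, 0.48 and -0.27 in the same order of hours, and its 4 h difference of -0.94 ± 0.39 was not called (adjusted p = 0.0705). miR-462-5p gave 0.98, -1.56, -2.04, -0.22 and 0.01, and 4 h differed by -1.25 ± 0.39 log2 (adjusted p = 0.0175), but by -0.73 in share (adjusted p = 0.164), and it was not called without MHG_4h library 2 (-0.79, adjusted p = 0.173) or CG_4h library 2 (-1.18, adjusted p = 0.065). For miR-122-5p the hours gave -0.52, -0.77, -1.08, 0.87 and 1.12, and 4 h was not called against the rest (-0.87 ± 0.34, adjusted p = 0.0526). Among the rises, miR-219-5p was 1.41 ± 0.34 and miR-460-3p 1.03 ± 0.39 log2 higher at 4 h than over the other hours (adjusted p = 0.00465 and 0.0473). miR-219-5p was not called without MHG_4h library 1 (0.87, adjusted p = 0.0623), and miR-460-3p not without MHG_4h library 2 or 3 or CG_4h library 1 or 3 (adjusted p = 0.0538 to 0.201).

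**Figure D5:**
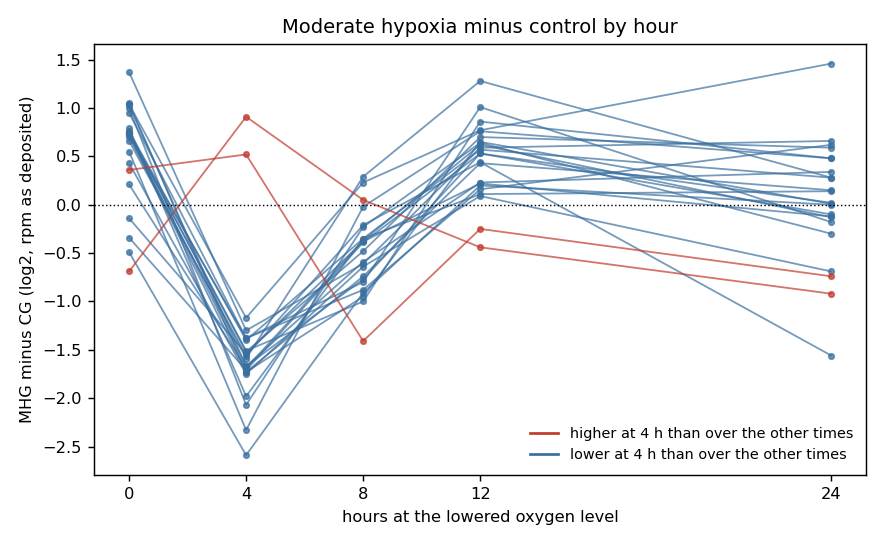
The log2 difference MHG minus CG in rpm as deposited at 0, 4, 8, 12 and 24 h, 1 line for each of 23 named miRNAs whose difference at 4 h was called against the mean of the other hours on both scales, so their 4 h points were chosen to stand out. Lower ones are blue and the 2 higher ones, miR-219-5p and miR-460-3p, red. miR-126b-3p, at 10.17 at 4 h, is left off the axis.

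Severe hypoxia (SHG_4h, dissolved oxygen 1.2 ± 0.2 mg/L, 3 libraries) had listed totals close to the control, at 759771 to 807580 rpm. Against SHG_4h, MHG_4h had 68 of 219 miRNAs called as deposited (31.1%), 3 higher and 65 lower, and as shares 61 (27.9%), 29 higher and 32 lower. miR-107b-3p averaged 14.9 rpm in MHG_4h and 110 rpm in SHG_4h, a difference of -3.04 log2 (adjusted p = 1.5e-05) and of -2.31 in share (adjusted p = 0.00116). Of the pancreas miRNAs, miR-216a-5p, miR-216b-5p and miR-217-5p were lower in moderate than in severe hypoxia, while miR-7a-5p was at 5.97 rpm in MHG_4h and 7.005 rpm in SHG_4h and was not called (-0.27, adjusted p = 0.648). miR-216a-5p was at 3.13 rpm in MHG_4h and 36.3 rpm in SHG_4h, a difference of -3.17 log2 (adjusted p = 2.7e-05), miR-216b-5p was at 39.4 and 280 rpm (-2.87, adjusted p = 2.11e-05), and miR-217-5p at 75.1 and 488 rpm (-2.82, adjusted p = 0.00021). In share these differences were -2.60, -2.07 and -2.01, all called.

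The miR-210 arms were lower in moderate than in severe hypoxia. miR-210-3p averaged 123 rpm in MHG_4h and 550 rpm in SHG_4h, a difference of -2.26 log2 (adjusted p = 5.18e-05) and of -1.47 in share (adjusted p = 0.00463). miR-210-5p averaged 80.5 rpm in MHG_4h and 191 rpm in SHG_4h (-1.23, adjusted p = 0.0085), but its share was not called (-0.45, adjusted p = 0.323), nor its difference without MHG_4h library 2 (-1.02, adjusted p = 0.0882). miR-462-5p did not differ beyond error, at 1750 rpm in MHG_4h and 2154 rpm in SHG_4h (-0.37, adjusted p = 0.444). miR-181a-3p averaged 148 rpm in MHG_4h and 1035 rpm in SHG_4h, a difference of -3.39 log2 (adjusted p = 0.000288) and of -2.62 in share (adjusted p = 0.00615). miR-2188-3p was higher in moderate hypoxia on both scales, at 66.7 rpm in MHG_4h and 35.2 rpm in SHG_4h (0.91, adjusted p = 0.0309, and 1.56 in share, adjusted p = 0.00329). As deposited it was not called without MHG_4h library 1 (0.86, adjusted p = 0.129) or library 3 (0.97, adjusted p = 0.0594).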

How the data were processed

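Small-RNA libraries of liver, sequenced on an Illumina HiSeq 2500 per the labels' protocols, were used as the authors' deposited values, taken as rpm: most low values lie in even steps. The steps did not pass a check for whole reads, with too few low values a library, so no count test was run. No label or file header names the unit, its denominator, the aligner or the genome build, and sequences of the miRNAs were not used here. A value equal to the mean of the other 2 in its group (within 0.0101 rpm or 0.1%) was set to missing, 1 of 3 identical values was kept, and a group at 0 throughout was set to missing. All 45 libraries in 15 groups were fitted in R 4.3.3 with limma 3.58.1 on log2(rpm + 1), with a trend of variance on abundance. A floor of 1 rpm was set on a miRNA's series mean. The added 1 rpm shrinks the folds of low miRNAs, which rest on few reads. Benjamini-Hochberg adjustment ran over all tested miRNAs of a comparison, and tests were two-sided. A typical miRNA kept 15 residual degrees of freedom (median; residual SD 0.319 log2). A group with 1 measured value borrows its spread from the others (29 of the 216 tested miRNAs, 5 of them called). The fit was tested on simulated data.

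Shares divide a library by its listed total, in which averaged and repeated values are included. Alternatives changed the scaling, pseudocount, filter, libraries in the fit, averaged values and variance trend, and left out each library. The members and lists were chosen with earlier results of these data known. miRNAs were named by rule: the 10 largest called non-overlapping changes each way of at least 10 rpm, miR-210, miR-462, miR-731, miR-122, miR-126, miR-144 and miR-155, the 5 most abundant, up to 4 called members a list, those at 0 in 1 group, called arm ratios, and the 5 largest called differences each way between hours and from severe hypoxia. Others are named as called on both scales or on shares only. miR-142a-3p and miR-142b-3p have identical values and are 1 measurement.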

Additional observations from a re-analysis of the deposited data

Results flagged for a closer look

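The moderate-minus-control difference of 24 named miRNAs at 4 h differed from its mean over the other 4 hours with an adjusted p under 0.05 on both scales (limma). Among all 197 miRNAs tested this way, 64 were called as deposited (32.5%) and 40 as shares (20.3%). Many of the 24 were named because they were called at 4 h or in this same contrast, so their standing out is in part built in. As deposited, 4 h was lower by more than 2 log2 units for miR-153b-3p (-2.77), miR-429a-3p (-2.35), miR-192-5p (-2.29), miR-146a-3p (-2.23), miR-216b-5p (-2.15) and miR-142b-5p (-2.04). It was lower for the epithelial miR-200b-3p (-1.96), miR-141-3p (-1.80) and miR-200a-3p (-1.53), for let-7d-5p (-1.93), and for miR-27e-3p (-1.91) and miR-27c-3p (-1.71). It was lower for miR-214-3p (-1.83), miR-2184-5p (-1.81), miR-107b-3p (-1.78), miR-210-3p (-1.78), miR-101a-3p (-1.64), miR-142a-5p (-1.63), miR-100-5p (-1.55), miR-148-3p (-1.43) and miR-125a-3p (-1.39). It was higher for miR-126b-3p (8.69), miR-219-5p (1.41) and miR-460-3p (1.03). The value of miR-126b-3p sets 10.17 at 4 h against a mean of 0.32 at 0 h, -11.17 at 8 h, 7.53 at 12 h and 9.22 at 24 h, so 12 h and 24 h were high as well. The value of miR-192-5p was -1.20 without the low value of MHG_4h library 3, and then not called in share (-0.58, adjusted p = 0.0782). Of the 24, 8 were called on both scales without MHG_4h library 2, 23 without library 1 and 18 without library 3, and 9, 14 and 14 without CG_4h libraries 1, 2 and 3. Among all miRNAs, 31 were called as deposited without MHG_4h library 2, and 30 of these are among the 64 called with it.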

How the results depend on the processing

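Of the 56 named or both-scale miRNAs called as deposited, all kept direction and call with a pseudocount of 0.1 or 10, no filter, no trend, all 3 deposited values or a tolerance of 1% for averaged values. The call count moved to 20 with only the 6 libraries, 31 with the 9 libraries of 4 h, 146 with all 3 deposited values, 37 as shares and 43 by median of ratios, and lay between 48 and 98 with 1 library left out. On shares it moved to 2 in either smaller fit (miR-126b-3p and miR-150-5p, each with 1 MHG_4h value) and 137 with all 3 deposited values, and lay between 10 and 76. Against the other hours it was 40 as shares, 42 by median of ratios, 122 with all 3 values, and 31 to 73. Against severe hypoxia it was 133 with all 3 values, and 48 to 86. Arm ratios gave 8 with a pseudocount of 10, 46 with all 3 values, and 1 to 5. The rises of the all-3-values counts come with treating averages as measurements. The cause of the other moves was not tested.

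Of the 216 differences, 74 below 0 as deposited were above 0 as shares and 0 the other way. Among the miRNAs named, signs reversed as share and by median of ratios for miR-101b-5p (0.51, 0.46), miR-122-3p (0.47, 0.42), miR-144-3p (0.43, 0.38), miR-181a-5p (0.18, 0.17), miR-26a-5p (0.40, 0.38) and miR-27b-3p (0.61, 0.52), and as share for miR-10b-5p (0.02). With 1 library left out, the deposited difference crossed 0 for let-7i-5p (-0.18 to 0.78), miR-101a-5p (-0.08 to 0.45), miR-101b-5p (-0.28 to 0.07), miR-122-3p (-0.56 to 0.28), miR-144-3p (-0.60 to 0.23), miR-19a-3p (-0.06 to 0.32), miR-19c-3p (-0.06 to 0.17), miR-214-5p (-0.18 to 0.23), miR-26a-5p (-0.50 to 0.09), miR-27a-3p (-0.16 to 0.47) and miR-27b-3p (-0.22 to 0.11). Same-numbered libraries shared little (correlations of their deviations 0.08, 0.04 and 0.11 over 217 miRNAs). This cannot exclude a pairing, since most miRNAs hold an averaged value in each group. With the replicate number as a block, 73 were called as deposited, 27 as shares and 4 arm ratios, and miR-101b-5p was at 0.06.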
